A study of Homo sapiens with 6 samples.

Results

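The response of 9 genes that p53 is known to switch on, CDKN1A, MDM2, SESN1, BTG2, RRM2B, ZMAT3, TP53INP1, FAS and PHLDA3, was followed through 6 RNA-seq libraries of C4-2B prostate cancer cells. They were chosen by symbol, with earlier results of these data known. These 9 were found in each of the 6 files, out of 26805 genes listed in any experiment and 13333 listed in all 3. C4-2B is an established human line derived from LNCaP. The cells were kept in RPMI with mostly charcoal-stripped serum, which is low in androgen, and received vehicle or a compound for 48 h. There were 3 experiments, each with 1 vehicle and 1 treated library. The compounds were 5 µM SR2211, an inverse agonist of the nuclear receptor ROR-γ, 5 µM XY011, known here by its code name alone, and 20 µM enzalutamide (ENZ), an antagonist of the androgen receptor. All 6 libraries come from that 1 line under the same serum, and each treated library has a vehicle library of its own, so no controls are shared.

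p53 is a transcription factor that is held at a low level by MDM2, a ubiquitin ligase which marks it for degradation and which p53 itself induces. When DNA is damaged, or when the cell is under other kinds of stress, p53 is released and binds DNA as a tetramer, at a pair of half-sites in tandem. Its targets arrest the cell cycle, repair DNA, adjust metabolism and redox state or start apoptosis, and CDKN1A, which encodes the CDK inhibitor p21, is the best known of those that arrest cells.

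The RefSeq promoter windows (build GRCh38.p14, 250 bases before to 50 bases after a start site) matched 6 of the 9 genes, with 14 windows in all. They were searched on both strands for the p53 consensus, which is 2 half-sites of 10 bases in tandem with 0 or 1 base between them. The closest matches are shown because MDM2, FAS and SESN1 are members whose windows held one, with the 20 matched bases in capitals and 5 bases on each side in lower case, all 5′ to 3′ on the strand of the gene. MDM2 is on the plus strand at chr12:68808918-68808947 in an intron, before its inner start site, with 2 mismatches to the consensus. FAS is on the plus strand at chr10:88991304-88991333, where exons of FAS and antisense exons of ACTA2 are annotated (GENCODE 29), also with 2 mismatches. SESN1 is on the minus strand at chr6:109009013-109009042 in an intron, with 3 mismatches.
MDM2: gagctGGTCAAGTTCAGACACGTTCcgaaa
FAS: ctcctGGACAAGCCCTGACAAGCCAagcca
SESN1: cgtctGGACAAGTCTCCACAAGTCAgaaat
Of all 35116 promoter windows, 1.34% held a match with 2 mismatches or fewer and 9.75% one with 3 or fewer. These shares are per window, while MDM2, FAS and SESN1 each had several windows and the best is shown. Such a best match per gene would be more common than those shares. BTG2 and ZMAT3 had 4 mismatches at best, which 41.3% of windows reach. Matches of this kind describe the letters and are not evidence that p53 was bound in these cells.

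CDKN1A is the member with the largest change with either 5 µM compound, and its window came no closer than 5 mismatches. That distance is reached by 85.6% of windows. Sequence beyond the window was not searched, so a closer match elsewhere at CDKN1A is not excluded. The CDKN1A window held 4 GC boxes (GGGCGG, counted on both strands), the motif of SP-family factors, and 9.06% of windows held 4 or more. Such boxes are not particular to CDKN1A, since SESN1 windows held up to 8 and that of BTG2 held 3. Printed below are the 98 bases before the first CDKN1A exon that starts inside this window (GENCODE 29), with their 2 forward GC boxes in capitals. They lie on the plus strand at chr6:36678560-36678657.
CDKN1A: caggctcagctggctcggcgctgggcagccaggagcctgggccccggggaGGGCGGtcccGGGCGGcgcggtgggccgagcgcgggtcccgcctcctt

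The libraries were first checked for the labelled cell type. All 10 prostate luminal markers were listed in each experiment, with summed levels of 3091 to 5432 in the vehicles and 1172 to 3297 in the treated libraries. Basal markers summed to 4.49 or less in every library. Stromal, endothelial and immune markers summed to 9.14 to 33.6 in the vehicles and 12.1 to 49.1 in the treated libraries, with CD3E unlisted throughout. Neuroendocrine markers reached 11.6 at most. Summed luminal markers were lower in each treated library than in its vehicle, and the part of any such shift in the changes of the p53 targets was not tested. In bulk RNA, fewer cells with a transcript and less transcript per cell cannot be told apart. Depth read back from the values was 8.20 M mapped reads in the vehicle library of the SR2211 experiment and 8.16 M in its treated library, and it is unknown for the other experiments. Levels are RPKM in the SR2211 experiment and FPKM in the other two, which are reads or fragments scaled for transcript length and for the number mapped. The tables were normalized separately, so levels are compared only within an experiment, as log2((treated + 1)/(vehicle + 1)). With 1 library per group these changes have no replicate check, and a gene is called higher or lower where its log2 change reached 1 or -1, a rule of size that gives no p-value.

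Several p53 targets were higher with SR2211 and with XY011, CDKN1A by the most, and none reached the size rule with ENZ. As the 9 were chosen with earlier results of these data known, their counts by size describe them without a test. With SR2211 4 of the 9 were called higher (CDKN1A, TP53INP1, BTG2 and SESN1), against 5.10% of the 12145 genes tested, and 0 were called lower, against 5.76%. With XY011 4 of the 9 were called higher (CDKN1A, BTG2, FAS and ZMAT3), against 7.55% of 12588 genes, and 0 lower, against 13.2%. With ENZ 0 of the 9 were called in either direction, where 3.68% of 19221 genes were called higher and 4.67% lower. With each pair centred on its median gene, XY011 gave 6 members called higher, and its split over all genes was 1265 higher and 1212 lower in place of 951 and 1659. The change was above 0 in 9 of 9 with SR2211, in 9 of 9 with XY011 and in 7 of 9 with ENZ, where all genes gave 45.6%, 42.2% and 47.7%. It was above 0 in all 3 experiments for 7 of the 9 and for 22.6% of all genes, and with both 5 µM compounds for 9 of the 9 and for 33.6%. The median log2 change of the 9 was 0.88, 0.88 and 0.14 in that order, beside -0.07, -0.14 and -0.02 over all genes tested. CDKN1A and BTG2 were called higher with both 5 µM compounds, as were 3.24% of 11624 genes.

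**Figure D1:**
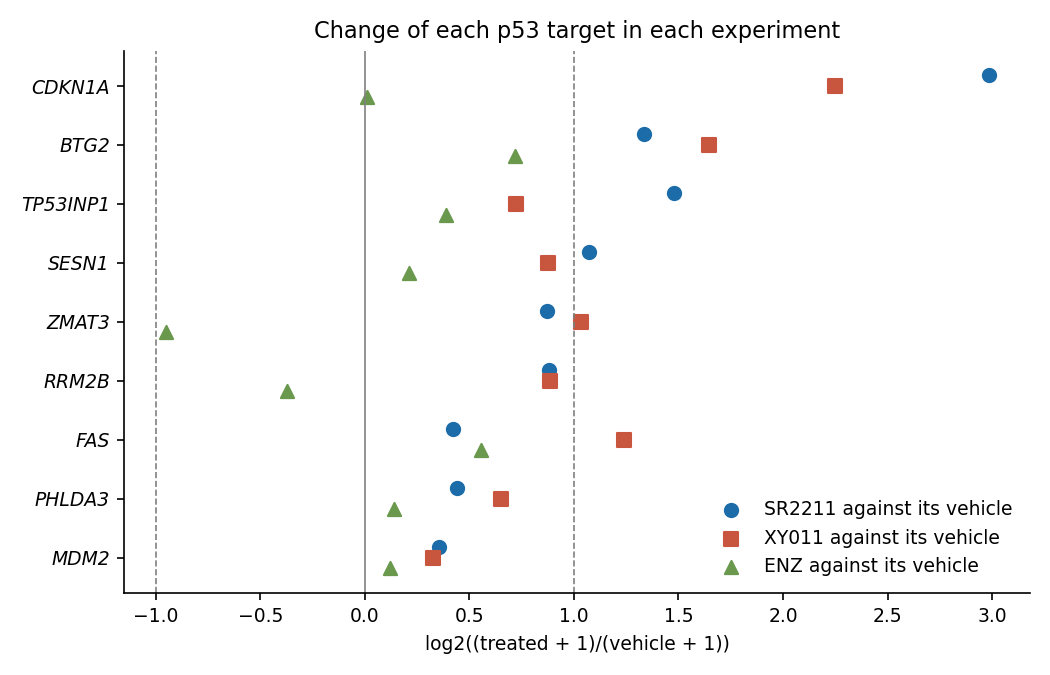
Change of each of the 9 p53 targets (rows) in the SR2211 (circles), XY011 (squares) and ENZ (triangles) experiments, as log2((treated + 1)/(vehicle + 1)) on the horizontal axis, 1 point per pair of libraries, with dashed lines at -1 and 1. Circles and squares all lie above 0, and ENZ triangles run from -0.95 for ZMAT3 to 0.72 for BTG2.

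A test across compounds was made in 1 fit. The limma package fitted a change shared by SR2211 and XY011, with the experiment as a term, over 11843 genes. Its error is the spread between the changes of these 2 compounds, not between replicate cultures, and it has 1 residual degree of freedom beside 5.32 borrowed across genes. By this test, with Benjamini-Hochberg adjustment over all genes, 6 of the 9 rose with the 2 compounds, 0 fell and 3 did not pass, where 9.38% of all genes rose and 13.7% fell. The members that rose were CDKN1A, BTG2, SESN1, ZMAT3, RRM2B and TP53INP1. With a pseudocount of 0.1 in place of 1 the fit called 0 of the 11843 genes, so every call of a shared rise or fall given here is lost under that setting, with an adjusted p of 0.0645 for CDKN1A.

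MDM2 stands first in the pathway as the brake on p53. It was at 27.3 RPKM in vehicle and 35.2 with SR2211, at 23.5 and 29.7 FPKM in the XY011 experiment, and at 53.6 and 58.4 FPKM in the ENZ experiment. The treated library was above its vehicle in all 3 pairs, by log2 0.35, 0.33 and 0.12, the smallest changes among the members with either 5 µM compound. The shared change was 0.34 ± 0.19 (SE) and did not pass (limma, adjusted p = 0.229). In the SR2211 pair the RPKM values fit whole read numbers, 1675 for vehicle and 2147 for SR2211, which gives the ratio 1.29 with an exact 95% interval of 1.21 to 1.37. These intervals cover counting error only. Except for BTG2, the read numbers given are the smallest that fit the values. They may stand for any multiple of themselves, in which case the ratio stands and the interval is too wide. Exons of AC025423.4 and CPM on the other strand and of AC025423.2 on the same strand overlap MDM2. No source used here gives the use of strand in counting, so reads of such neighbours cannot be told apart.

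MDM4, the relative that binds p53 and dampens its activity, was at 7.58 and 10.7 RPKM with vehicle and SR2211. In the XY011 experiment it was at 6.96 and 11.0 FPKM and in the ENZ experiment at 7.84 and 11.997 FPKM. Its log2 changes of 0.45, 0.59 and 0.56 were larger than those of MDM2 in each experiment, and the shared one did not pass either (limma, adjusted p = 0.0965). Of 19 tested genes of p53 regulation, MDM4 among them, 0 rose and 1 fell by the shared test (the checkpoint kinase gene CHEK1). Over all genes 9.38% rose and 13.7% fell by that test. By size, 0 of the 19 were called with SR2211, where 5.10% of all genes were called higher and 5.76% lower. With XY011 0 were called higher and 2 lower, against 7.55% and 13.2% of all genes. These 2 were CHEK1 and the DNA damage kinase gene ATR, the latter at 10.4 and 4.35 FPKM. With ENZ ATR was the 1 called, lower from 22.4 to 10.6 FPKM, where 4.67% of all genes were called lower.

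CDKN1A arrests cells by blocking the cyclin-dependent kinases of G1 and S phase. It went from 26.2 to 214 RPKM with SR2211 and from 29.9 to 146 FPKM with XY011, and it was at 54.1 and 54.6 FPKM in vehicle and ENZ. Both 5 µM libraries were thus far above their vehicles, 8.17-fold and 4.87-fold, and the ENZ library stood level with its own at 1.01-fold. With log2 changes of 2.98 and 2.25 it ranked 19th from the top of 12145 genes with SR2211 and 95th of 12588 with XY011, and with ENZ its change of 0.01 was higher than that of 53.4% of genes. Its shared change was 2.62 ± 0.24 (SE; limma, adjusted p = 0.00489). Read numbers in the SR2211 pair were 491 and 3994, with an exact 95% interval of the ratio of 7.44 to 8.99. The long noncoding RNA gene DINOL lies antisense to CDKN1A, and its reads cannot be told apart from those of CDKN1A.

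**Figure D2:**
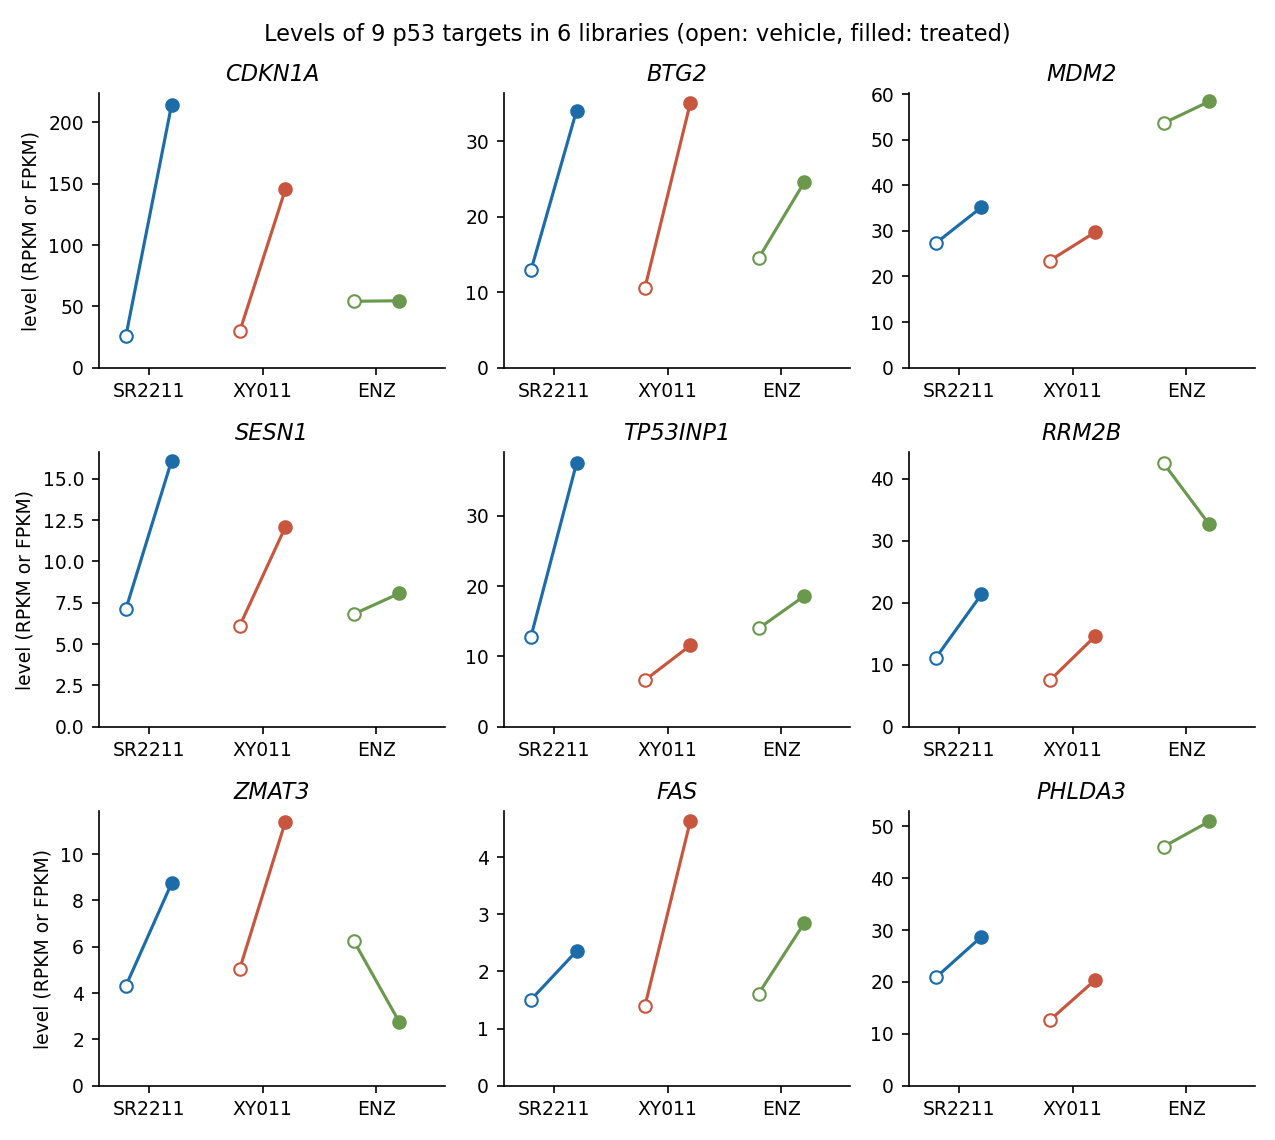
Level of each p53 target in the 6 libraries, RPKM in the SR2211 experiment and FPKM in the XY011 and ENZ experiments, on linear axes from 0; open circles are vehicle, filled circles treated, and a line joins each pair. CDKN1A goes from 26.2 to 214 and from 29.9 to 146 with SR2211 and XY011 and is level with ENZ, while ZMAT3 and RRM2B slope down with ENZ alone.

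BTG2 encodes an antiproliferative protein that recruits the CCR4-NOT deadenylase to messenger RNA. Its level was 12.9 in vehicle and 34.1 RPKM with SR2211, 10.5 and 35.1 FPKM in the XY011 experiment, and 14.5 and 24.6 FPKM in the ENZ experiment. Each treated library was above its vehicle, by log2 1.33, 1.65 and 0.72, and the ENZ change was the highest of the 9. Fitted over both compounds the change was 1.49 ± 0.20 (SE; limma, adjusted p = 0.00877). The smallest read numbers that fit were 8 and 21, a ratio of 2.64 with an exact 95% interval of 1.12 to 6.88. Numbers 36 times as large, 288 and 756, match an annotated transcript length and narrow the interval to 2.30 to 3.03.

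SESN1, a sestrin that restrains mTORC1 under stress and takes part in antioxidant defence, was at 7.14 and 16.1 RPKM with vehicle and SR2211. It was at 6.12 and 12.1 FPKM in the XY011 experiment and at 6.82 and 8.06 FPKM in the ENZ experiment. Each treated library was above its vehicle, by log2 1.07, 0.88 and 0.21, with the ENZ step the smallest, and the shared change was 0.97 ± 0.19 (SE; limma, adjusted p = 0.0208). Read numbers of 94 and 211 gave a ratio of 2.25 (exact 95% interval 1.76 to 2.91). The gene AL390208.1 is antisense to SESN1, and its reads cannot be told apart.

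TP53INP1 encodes a nuclear cofactor that promotes autophagy and p53-dependent cell death. It was at 12.8 and 37.4 RPKM with vehicle and SR2211, at 6.60 and 11.6 FPKM in the XY011 experiment and at 14.0 and 18.6 FPKM in the ENZ experiment. SR2211 gave the largest step, log2 1.48 against 0.72 with XY011 and 0.39 with ENZ. The shared change was 1.10 ± 0.24 (SE; limma, adjusted p = 0.0266), and read numbers of 595 and 1732 gave 2.92 (exact 95% interval 2.66 to 3.21).

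RRM2B encodes p53R2, the small ribonucleotide reductase subunit that supplies deoxynucleotides for repair and for mitochondrial DNA. Its levels were 11.1 and 21.3 RPKM with vehicle and SR2211, 7.46 and 14.6 FPKM with vehicle and XY011, and 42.5 and 32.6 FPKM with vehicle and ENZ. The 5 µM compounds gave the same log2 change to 2 decimals, 0.88, while the ENZ library was below its vehicle, at -0.37. Over both compounds the fitted change was 0.88 ± 0.19 (SE; limma, adjusted p = 0.0253), and read numbers of 450 and 859, at an annotated transcript length, gave 1.92 (exact 95% interval 1.71 to 2.15).

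ZMAT3, a zinc finger protein that binds RNA and regulates splicing, had the widest contrast between compounds after CDKN1A. It was at 4.32 and 8.74 RPKM with vehicle and SR2211 and at 5.06 and 11.4 FPKM with vehicle and XY011. In the ENZ experiment it was at 6.26 in vehicle and 2.75 FPKM with ENZ, so that ENZ alone stood below its vehicle. Log2 changes were 0.87, 1.03 and -0.95, the ENZ change being higher than that of 5.18% of genes. Its shared change was 0.95 ± 0.19 (SE; limma, adjusted p = 0.0218), and read numbers of 323 and 650 gave 2.02 (exact 95% interval 1.77 to 2.32).

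FAS encodes a death receptor of the cell surface. It had the lowest vehicle levels of the 9, with 1.505 and 2.36 RPKM for vehicle and SR2211, 1.39 and 4.64 FPKM for vehicle and XY011, and 1.61 and 2.85 FPKM for vehicle and ENZ. All 3 treated libraries were above their vehicles, by log2 0.42, 1.24 and 0.56, and here ENZ exceeded SR2211. The shared change, 0.83 ± 0.25 (SE), did not pass (limma, adjusted p = 0.0581). The smallest read numbers that fit the SR2211 pair were 34 and 53, a ratio of 1.57. Its exact 95% interval ran from 0.999 to 2.48 and so just included 1. Multiples of these numbers would narrow the interval, so it does not settle whether FAS differed in this pair. ACTA2 is antisense to FAS.

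PHLDA3 encodes a PH-domain protein that competes with AKT for membrane lipids. It was at 20.9 and 28.7 RPKM with vehicle and SR2211, at 12.6 and 20.4 FPKM with vehicle and XY011, and at 46.1 and 50.9 FPKM with vehicle and ENZ. Each treated library was above its vehicle, by log2 0.44, 0.65 and 0.14. The shared change of 0.55 ± 0.20 (SE) did not pass (limma, adjusted p = 0.0893). Read numbers of 278 and 381 gave 1.38 (exact 95% interval 1.18 to 1.61), and AC096677.2 overlaps it on the same strand.

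**Figure D3:**
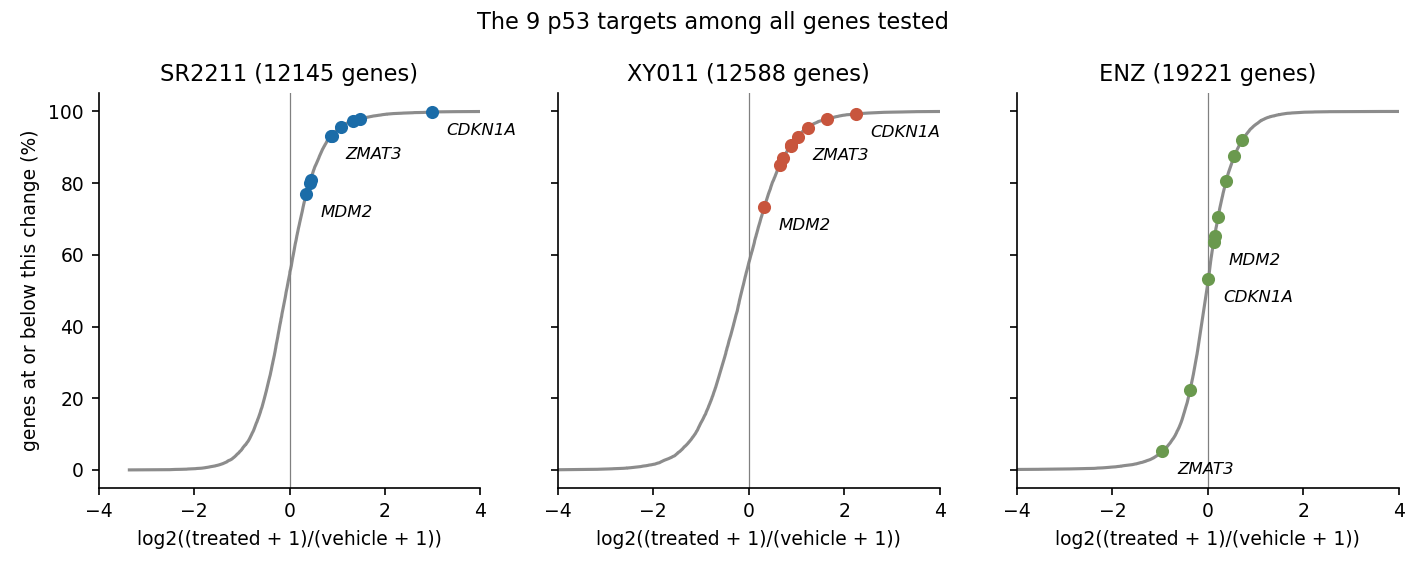
Share of genes tested in percent (vertical axis) at or below a given log2((treated + 1)/(vehicle + 1)) (horizontal axis, shown from -4 to 4) for each experiment; the line is all genes and the points are the 9 p53 targets. CDKN1A lies above 99.8% of genes with SR2211, 99.2% with XY011 and 53.4% with ENZ, and the ENZ points are spread along the line from 5.18% for ZMAT3 to 91.9% for BTG2.

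Whether the 5 µM compounds differed from ENZ was tested in the same limma fit, with the reservation that ENZ was given at another dose and has 1 pair. By adjusted p 0 of the 9 differed, with 0.00% of all genes higher with the 5 µM compounds and 0.00844% lower (1 gene). At an unadjusted p under 0.05 there were 3 of 9 members, beside 15.9% of all genes (1879). These were CDKN1A, with a difference of 2.60 ± 0.42 (SE; limma, adjusted p = 0.146), ZMAT3, with 1.91 ± 0.34 (adjusted p = 0.168), and RRM2B, with 1.25 ± 0.33 (adjusted p = 0.215). With each pair centred on its median gene, CDKN1A (adjusted p = 0.0116) and ZMAT3 (0.0286) passed. SR2211 and XY011 could not be tested against each other, since each has 1 pair. XY011 was above SR2211 in log2 change for FAS by 0.82 and below it for TP53INP1 by 0.75 and for CDKN1A by 0.74, and the other 6 members lay within 0.32 of each other.

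The relatives of the 9 genes were listed by family. By the shared test 9.38% of all genes rose and 13.7% fell. CDKN1B, which encodes p27, rose (shared log2 change 1.31 ± 0.32, limma, adjusted p = 0.0326), from 39.1 to 63.1 RPKM with SR2211 and from 25.7 to 102 FPKM with XY011. CDKN2C, which encodes p18, fell (-1.17 ± 0.19, adjusted p = 0.0135), and the remaining 5 CDK inhibitor genes tested did not pass. All 3 sestrins rose, and SESN2 did so most, from 6.36 to 53.2 RPKM with SR2211 and from 5.13 to 36.3 FPKM with XY011, with 10.7 and 19.3 FPKM in the ENZ pair (shared log2 change 2.74 ± 0.20, adjusted p = 0.00291). SESN3 changed by 0.93 ± 0.24 (adjusted p = 0.0369). TP53INP2, an autophagy factor, rose as TP53INP1 did (1.18 ± 0.20, adjusted p = 0.0136), and of the 5 tested BTG and TOB genes BTG2 alone rose, 0 fell and 4 did not pass.

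Other families split. RRM2, the subunit that serves S phase, fell from 88.6 to 18.9 RPKM with SR2211 and from 81.2 to 14.3 FPKM with XY011 (shared log2 change -2.30 ± 0.20, limma, adjusted p = 0.00453), while its p53-responsive counterpart RRM2B rose. RRM1, the large subunit, did not pass (-0.61 ± 0.20, adjusted p = 0.0683). PHLDA1 and PHLDA2, which share the PH-like domain of PHLDA3, fell by 1.94 and 1.91 on the log2 scale (limma, adjusted p = 0.00519 and 0.00544), in contrast to the positive value of PHLDA3. PHLDA2 went from 76.0 to 18.8 RPKM with SR2211, from 15.1 to 3.43 FPKM with XY011 and from 119 to 81.4 FPKM with ENZ. Among 9 tested genes of the FAS pathway the death receptor genes TNFRSF10B (0.96 ± 0.19, adjusted p = 0.0209) and TNFRSF1A (0.91 ± 0.22, adjusted p = 0.0322) rose, and FADD, the adaptor that FAS recruits, fell (-0.86 ± 0.23, adjusted p = 0.0444). The shares of all genes that rose and fell were 9.38% and 13.7%.

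**Figure D4:**
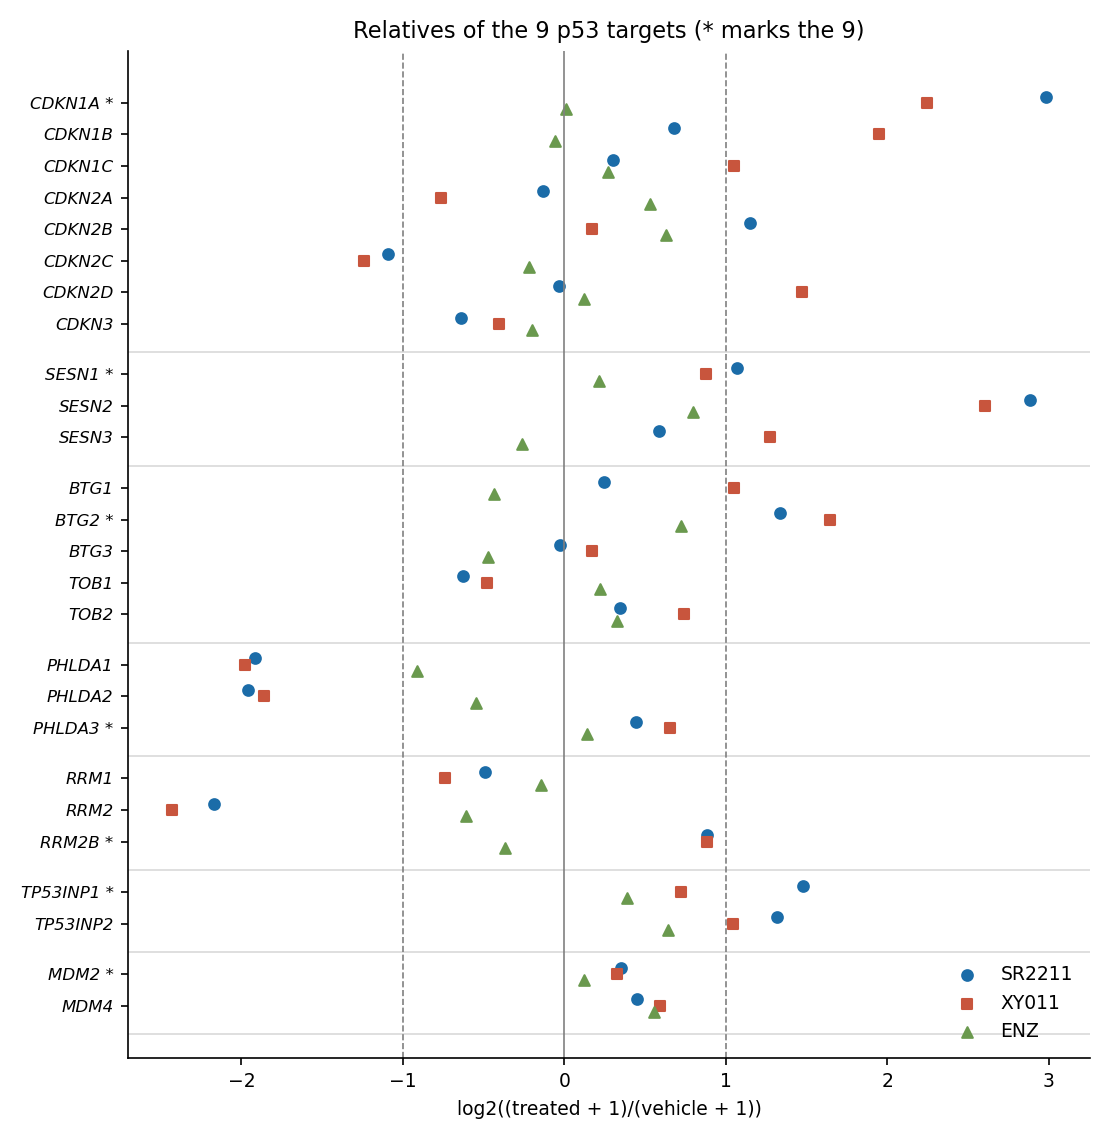
Log2((treated + 1)/(vehicle + 1)) of members among the 9 p53 targets (asterisks) and their relatives, grouped by family, in the SR2211 (circles), XY011 (squares) and ENZ (triangles) experiments. FAS and ZMAT3 are not drawn. Dashed lines mark -1 and 1. RRM2 at -2.17 and -2.43 and RRM2B at 0.88 and 0.88 with SR2211 and XY011 lie on opposite sides of 0, and all 3 sestrins lie above 0 with both compounds.

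Some other p53 targets rose and some fell. Of 70 tested by the shared change, 15 rose and 7 fell, against 9.38% and 13.7% of all genes. The count that fell was thus not above the share of all genes. By size, 9 of 69 were higher and 3 lower with SR2211, 12 of 69 higher and 5 lower with XY011, and 4 of 73 higher and 0 lower with ENZ, with median log2 changes of -0.03, 0.09 and -0.00018 beside -0.07, -0.14 and -0.02 over all genes. By the same rule 5.10%, 7.55% and 3.68% of all genes were higher and 5.76%, 13.2% and 4.67% lower in these experiments. The ENZ count of higher genes and the SR2211 count of lower genes were near those shares. The XY011 and ENZ counts of lower genes were below them. The lists were chosen with earlier results of these data known, and these counts describe them without a test. Where a small count below holds genes that the rule for named genes did not pick, they are named after their values were seen.

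Among targets for arrest and feedback, 5 of 13 rose (GADD45A, CCNG2, GADD45B, CCNG1 and TP53I11) and 2 fell. Over all genes 9.38% rose and 13.7% fell by the shared test, so the count that fell was near its share. GADD45A, a growth arrest and repair gene, went from 3.40 to 33.7 RPKM with SR2211 and from 3.96 to 44.2 FPKM with XY011, and was at 14.5 and 18.6 FPKM in the ENZ pair (shared log2 change 3.08 ± 0.20, limma, adjusted p = 0.00228). CCNG2, an atypical cyclin, went from 15.8 to 36.3 RPKM and from 4.28 to 35.5 FPKM (1.97 ± 0.38, adjusted p = 0.0190). The kinase gene PLK2 fell from 14.5 to 5.50 RPKM and from 9.32 to 1.67 FPKM (-1.60 ± 0.24, adjusted p = 0.0105), and so did E2F7, a repressor of E2F targets (-1.41 ± 0.19, adjusted p = 0.00881). CCNK, a cyclin of transcription, was called higher with ENZ, at 37.3 and 79.3 FPKM.

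Of 11 DNA repair targets 2 rose (GADD45A, which is on both lists, and XPC, a damage sensor gene) and 1 fell, the latter being PCNA, the sliding clamp of DNA polymerase, at 121 and 39.4 RPKM and at 138 and 39.9 FPKM (shared log2 change -1.68 ± 0.19, limma, adjusted p = 0.00657). POLH, a translesion polymerase gene, was at 8.81 and 19.4 FPKM with vehicle and ENZ. Of 14 metabolic targets 2 rose (SESN2 and CPT1C) and 1 fell (GAMT). These repair and metabolic counts stand beside 9.38% of all genes that rose and 13.7% that fell, and the metabolic ones were near those shares. CPT1C, a carnitine palmitoyltransferase gene, was at 4.39 and 16.9 FPKM with vehicle and ENZ, and its shared change with the 5 µM compounds was 0.87 ± 0.21 (adjusted p = 0.0313).

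Of 16 cell death targets 3 rose (BBC3, PMAIP1 and TNFRSF10B) and 2 fell (STEAP3 and EI24). For this list and the next the shares of all genes were 9.38% risen and 13.7% fallen, and the 2 that fell were near that share. BBC3, which encodes the BH3-only protein PUMA, went from 1.05 to 6.21 RPKM with SR2211 and from 0.44 to 5.95 FPKM with XY011, and was at 5.10 and 5.95 FPKM in the ENZ pair (shared log2 change 2.04 ± 0.21, limma, adjusted p = 0.00593). PMAIP1, which encodes NOXA, went from 4.06 to 11.7 RPKM and from 1.85 to 8.19 FPKM (1.51 ± 0.20, adjusted p = 0.00877), with 5.89 and 3.71 FPKM in the ENZ pair. Of 17 targets in signalling and other roles 4 rose (GDF15, ANKRA2, ABHD4 and ULK1) and 1 fell (KITLG). GDF15, a stress cytokine, had the largest shared change of them, 4.40 ± 0.33 (adjusted p = 0.00319), while in the ENZ pair it was at 1064 and 620 FPKM. ANKRA2 rose (1.24 ± 0.20, adjusted p = 0.0121), and ULK1, an autophagy kinase gene, was called higher with ENZ, at 17.2 and 37.5 FPKM.

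Many genes of cyclins, CDKs, E2F factors, the RB family and PCNA, listed here as partners of p21, were lower with the 5 µM compounds. Of 16 tested, 0 rose, 11 fell and 5 did not pass by the shared change, by which 13.7% of all genes fell. RBL2, singled out here with its values known, was the 1 above 0 with both compounds, at log2 0.62 and 0.63, with 0.39 in the ENZ pair (shared change 0.62 ± 0.19, limma, adjusted p = 0.0607). By size 9 were lower with SR2211, 8 with XY011 and 1 with ENZ, where 5.76%, 13.2% and 4.67% of all genes were. CCNE2, a cyclin of the G1/S step, went from 18.3 to 4.07 RPKM with SR2211, from 16.3 to 1.81 FPKM with XY011 and from 11.0 to 3.82 FPKM with ENZ, where it was the 1 called. Its shared log2 change was -2.27 ± 0.24 (limma, adjusted p = 0.00593), and those of E2F1 and E2F2, which drive S-phase genes, were -1.65 ± 0.26 (adjusted p = 0.0117) and -1.53 ± 0.19 (adjusted p = 0.00793). With both 5 µM compounds CDKN1A was thus higher while CCNE2, E2F1 and E2F2 were lower, and with ENZ CCNE2 was lower beside a level CDKN1A.

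**Figure D5:**
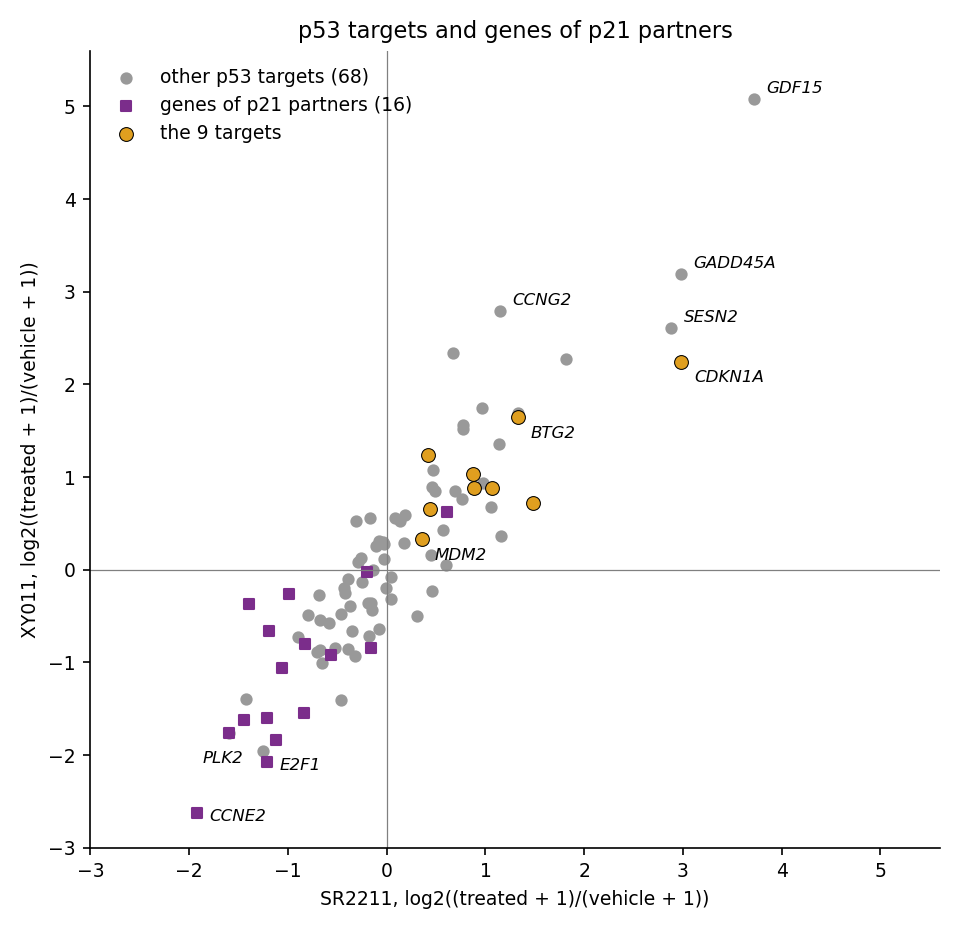
Log2((treated + 1)/(vehicle + 1)) with SR2211 (horizontal axis) against XY011 (vertical axis) for the 9 p53 targets (outlined circles), 68 other p53 targets tested in both experiments (grey circles) and 16 genes of p21 partners (squares). Each gene is 1 point, except that PCNA is on both lists and is drawn for each. The 9 targets lie above 0 on both axes, and most squares lie below 0 on both. Grey points reach down to -1.60 with SR2211 (PCNA) and to -1.95 with XY011 (PLK2). They reach up to GDF15 at 3.71 and 5.08.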

How the data were processed

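RNA was poly(A)-selected and sequenced from C4-2B cells, 1 library per group and 6 in all. The authors deposited RPKM for the SR2211 experiment and FPKM for the XY011 and ENZ experiments. Cufflinks, Cuffdiff, Bowtie and BWA, and the builds hg19 and GRCh37, are named in the submitters' processing notes, with versions, roles, annotation and use of strand not given in the sources used here. Genes without reads stand at 0.01 in the SR2211 files and 0.001 in the XY011 files, and no gene is at 0 in the ENZ vehicle, which hides increases from 0. Groups were taken from titles and agents, since an extraction protocol names a code other than XY011 and that of the ENZ pair names SR2211.

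Tables were joined by Entrez identifier or, for ENZ, by symbol. Genes at 1 or more in either library were tested within a pair, with a pseudocount of 1 and without small RNAs. The shared change was fitted with limma 3.58.1 (R 4.3.3) on log2(value + 1), for genes with a mean of 1 or more, at an adjusted p of 0.05. Whole reads were recovered from RPKM at 8.20 M reads, a depth ratio (0.996) shared by 476 of 2604 low genes. Each library of a pair had its own treatment, but the labels do not say whether the 2 began as 1 culture. The p-values therefore measure only the spread between these libraries. The scripts were tested on simulated data. Alternatives were the pseudocount, filter, scaling, threshold, prior trend and leaving out a pair. Named genes are the 9 members, MDM4, their families, up to 4 per list called alike with SR2211 and XY011, up to 2 per list called with ENZ, and the 5 nearest patterns. The members, lists and rules were chosen with earlier results of these data known. One gene of the lists is not reported here.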

Additional observations from a re-analysis of the deposited data

How the results depend on the processing

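No member's change within an experiment reversed its sign under any setting tried, and of the differences from ENZ that of FAS did, from 0.27 to -0.14 without the XY011 pair. With SR2211 the count of members called higher, 4, became 3 with a pseudocount of 5 and 6 at a 1.5-fold threshold. With XY011 the count of members called higher, 4, became 2 with a pseudocount of 5 and 8 at a 1.5-fold threshold. With ENZ 1 member (ZMAT3, log2 -1.16) was called lower with a pseudocount of 0.1, and at the 1.5-fold threshold 1 was called lower and 1 higher. The shared change of SR2211 and XY011 was called in 0 members with a pseudocount of 0.1, where limma called 0 of 11843 genes and CDKN1A had an adjusted p of 0.0645. With centring FAS (adjusted p = 0.0174) and PHLDA3 (0.0435) passed as well, and with a trend in the prior PHLDA3 did (0.0497). The difference from ENZ was called in 2 members with centring (123 genes in all) and in 1, CDKN1A, with a trend in the prior (45 genes in all). The cause was not tested. Leaving out the SR2211 or the XY011 pair leaves the change of the other compound alone, a value with no test. Over all genes the number called higher ran from 256 to 1674 with SR2211 (619 as reported), from 392 to 2139 with XY011 (951) and from 185 to 2232 with ENZ (707), between a pseudocount of 5 and the 1.5-fold threshold. The number called lower ran likewise from 301 to 2091 (699), from 666 to 3500 (1659) and from 273 to 2389 (898). Without the RNA of further cultures, a difference between compounds and one between cultures cannot be told apart.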

Other observations

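Genes with the most similar pattern over the 3 experiments were sought among 8107 genes at 5 or more in at least 1 library of each experiment, by the Euclidean distance between their 3 log2 changes. Nearest to CDKN1A was MT1X, a metallothionein, at 0.44, which went from 25.5 to 204 RPKM with SR2211 and from 34.2 to 122 FPKM with XY011 and was at 49.3 and 49.3 FPKM in the ENZ pair. MT1X belongs to a family of near-identical copies, between which the counting could split reads. Next came VEGFA, an angiogenic growth factor (0.49), with log2 changes of 2.86, 2.59 and 0.35. CPEB4, a binder of messenger RNA (0.61), ABCG1, a sterol transporter (0.64), and ENC1 (0.64) followed. VEGFA was at 25.9 and 195 RPKM in the SR2211 pair, close to the 26.2 and 214 of CDKN1A.

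The median profile of the 9 p53 targets had changes of 0.88, 0.88 and 0.14. Nearest to it were ARHGAP44 (distance 0.073), BLTP3A (0.073), CCNB1IP1 (0.091), CTDSP2 (0.095) and LENG1 (0.11). CTDSP2, a phosphatase gene, was at 20.5 and 39.0 RPKM with vehicle and SR2211, at 19.5 and 39.3 FPKM with vehicle and XY011 and at 38.8 and 42.7 FPKM with vehicle and ENZ. These distances rest on 3 changes from 1 pair of libraries each and describe likeness in these libraries alone.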
